A study of Mus musculus with 7 samples.

Results

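The zinc-finger gene cluster of mouse chromosome 13 was taken as the 3 Mb between 65 and 68 Mb of the chromosome (mm9), and its members are the H3K9me3 peaks whose start lies in this window in the peak lists of WT and KO fibroblasts. It held 340 of the 23190 WT peaks and 37 of the 3775 KO peaks. The window was chosen by the density of called peaks, by the difference between the lists and by the zinc-finger and Vmn2r genes in it, so the numbers of peaks and their change from WT to KO describe the choice and are no finding.

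H3K9me3, histone H3 trimethylated on lysine 9, was mapped by ChIP-seq, the sequencing of immunoprecipitated chromatin, with the antibody ab8898 in Setdb1 cKO iMEFs. This is an immortalized mouse embryonic fibroblast line that loses Setdb1, a methyltransferase for H3K9, when 4-hydroxytamoxifen (4OHT) is added. WT cells are the same cKO line without treatment, and KO cells received 4OHT for 4 days and were harvested on day 7. Each group had 1 H3K9me3 library, hence nothing below has a replicate to check it. The study's methods describe recloned cells screened for their response to 4OHT, so the line may stand for 1 clone. The series also holds forebrain and input libraries, 5 of its 7 samples, which entered no comparison.

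C2H2 zinc-finger genes make up the largest family of transcription factor genes in mammals, and many carry a KRAB domain that recruits Trim28 and, through it, Setdb1. Their fingers are coded in tandem in a terminal exon, and successive fingers are joined by a conserved linker. The genes arose by tandem duplication and lie in clusters, and H3K9me3 is known to cover the finger-coding exons of such clusters in several cell types. Vmn2r genes code for vomeronasal pheromone receptors and are silent in fibroblasts. Linkers were located here as codons for histidine, serine or threonine, glycine, glutamate, lysine or arginine, and proline, on both strands and in any frame. A zinc-finger array is a run of at least 3 such matches on 1 strand with gaps of at most 200 bp.

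The repeated unit of these arrays, and the sequence under the highest peaks, are shown because the results turn on how far copies resemble each other. The highest-scoring WT peak of the cluster, chr13:65613455-65614933, lay over an array of 15 linkers. The 300 bases around its centre, chr13:65614045-65614344 (mm9, plus strand), have their linker codons in capitals:
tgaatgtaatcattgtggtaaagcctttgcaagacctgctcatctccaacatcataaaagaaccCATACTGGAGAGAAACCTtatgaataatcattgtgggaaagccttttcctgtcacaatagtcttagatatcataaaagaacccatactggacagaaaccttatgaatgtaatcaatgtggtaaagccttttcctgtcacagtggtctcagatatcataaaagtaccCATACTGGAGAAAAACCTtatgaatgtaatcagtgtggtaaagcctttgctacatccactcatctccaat
A unit of 84 bases there corresponds to 1 finger with its linker. After the first linker in capitals its frame reads tat, gaa and taa, and taa is a stop codon, so that frame is not open throughout. The reading frames of the other arrays were not tested. The highest-scoring KO peak lay just beyond the same array, and in the 300 bases around it, chr13:65615094-65615393 (plus strand), capitals mark the peak, in which no linker matched:
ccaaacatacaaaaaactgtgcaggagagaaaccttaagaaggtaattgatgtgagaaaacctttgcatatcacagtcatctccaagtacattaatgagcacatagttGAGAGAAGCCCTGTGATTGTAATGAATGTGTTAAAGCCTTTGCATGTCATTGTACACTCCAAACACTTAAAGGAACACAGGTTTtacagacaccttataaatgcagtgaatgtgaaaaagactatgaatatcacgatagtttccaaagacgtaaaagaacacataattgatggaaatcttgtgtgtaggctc

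For comparison, 1 unit of 84 bases is shown from 5 arrays, each read on the strand of its array with the linker codons in capitals. The first lies under the highest-scoring WT peak (chr13:65613521-65613604, plus strand), the second under the WT peak of second-highest score among those with a linker (chr13:66894287-66894370, minus strand), and the others in the annotated genes Zfp640 (chr13:66772146-66772229), Zfp712 (chr13:67141835-67141918) and Zfp748 (chr13:67642177-67642260), all on the minus strand.
highest WT peak: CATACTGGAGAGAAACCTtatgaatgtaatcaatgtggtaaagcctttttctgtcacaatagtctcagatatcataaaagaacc
second WT peak: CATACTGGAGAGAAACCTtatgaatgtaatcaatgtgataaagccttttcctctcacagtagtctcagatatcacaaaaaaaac
Zfp640: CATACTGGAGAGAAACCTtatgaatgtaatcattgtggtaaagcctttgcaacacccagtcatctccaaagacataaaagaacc
Zfp712: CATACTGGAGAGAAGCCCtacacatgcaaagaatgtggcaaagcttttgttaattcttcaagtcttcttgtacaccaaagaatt
Zfp748: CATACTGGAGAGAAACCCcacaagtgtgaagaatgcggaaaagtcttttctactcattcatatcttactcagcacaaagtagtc
The unit of the highest peak shared 77 of 84 bases with that of the second peak and 68 with that of Zfp640, both over 1 Mb away in the same repeated stretch. It shared 53 bases each with Zfp712 and Zfp748, both from the less repeated distal stretch, and these last 2 shared 57 bases with each other. Each unit is 1 of several in an array of 7 to 15 linkers, and the other units were not compared. These counts thus describe single units and not whole arrays. Linkers followed each other at exactly 84 bases in 239 of 271 gaps of the central arrays and in 78 of 100 gaps of the distal ones.

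The peaks were packed into the middle of the window. The 3 stretches used below were drawn after the positions were seen: the centromere-proximal 0.4 Mb, the central 1.6 Mb up to 2 Mb from the start of the window, and the distal 1 Mb. The central stretch held 327 of the 340 WT peaks and 36 of the 37 KO peaks, or 204 WT peaks per Mb. The centromere-proximal stretch held 2 WT peaks and no KO peak, and the distal stretch 11 WT peaks and 1 KO peak. The central stretch began and ended sharply: its 16 bins of 100 kb held 10 to 43 WT peaks each, and the 10 distal bins 0 to 6. The genome average was 9.06 WT peaks per Mb, close to the 11 per Mb of the distal stretch.

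**Figure D1:**
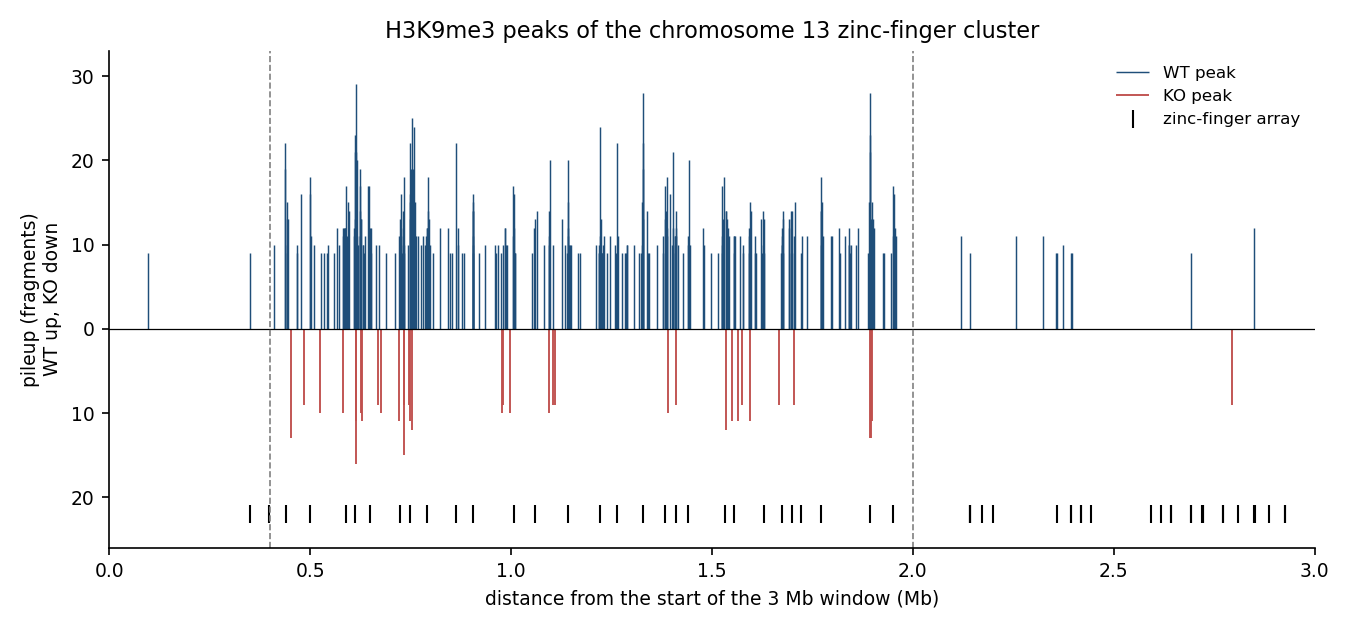
Each vertical line is a peak at its distance from the start of the window (Mb), drawn upward to its pileup in fragments for WT and downward for KO; black ticks are the zinc-finger arrays and dashed lines the borders of the central 1.6 Mb. Of the peaks, 327 of 340 in WT and 36 of 37 in KO lie between the dashed lines, while arrays lie on both sides of the right-hand line.

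At the borders of the window, the last WT peak before it was chr13:64985545-64985656 (pileup 11 fragments, fold enrichment 5.18) and the first inside it chr13:65096660-65096884 (pileup 9, fold enrichment 4.32). The last WT peak inside was chr13:67848366-67848444 (pileup 12, fold enrichment 4.37) and the first beyond it chr13:68200312-68200428 (pileup 11, fold enrichment 5.18). The first KO peak inside was chr13:65451478-65451570 (pileup 13) and the last chr13:67794308-67794383 (pileup 9). The nearest KO peaks outside, at 53706155 and 72018559, both had a pileup of 9. The borders of the window thus fell in thinly marked sequence on both sides.

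The central stretch differed from its surroundings in sequence. Copies were counted as the median number of occurrences of the 31-mers of a tile or peak, on both strands. In the central stretch, 91.8% of the 200 bp tiles held sequence that occurred more than once within the window, against 7.40% in the centromere-proximal stretch and 10.1% in the distal one. Of the WT peaks of the cluster, 238 of 340 lay in sequence of more than 1 and up to 10 copies in the genome, or 70.0% (Wilson 95% interval 64.9 to 74.6), against 14.6% (14.2 to 15.1) of the other WT peaks. This was not particular to the cluster. The share was 79.3% (75.3 to 82.8) in the zinc-finger window of chromosome 4 (145 to 148 Mb) and 51.7% (44.9 to 58.4) in that of chromosome 10 (80 to 83 Mb). Conversely, 35.9% of the other WT peaks lay in sequence of more than 1000 copies, and 8 of the 340 did, or 2.35%. In the windows of chromosomes 4 and 10 these were 0.449% and 7.73%. All intervals cover counting error only. The peaks of the cluster thus lay mostly over low-copy sequence, and few lay in dispersed high-copy repeats. The tiles of the central stretch were themselves mostly of this kind. More than 1 and up to 5 copies within the window were found for 51.5% of them, and more than 5 and up to 20 for 39.6%. The share of low-copy peaks hence largely describes the sequence of this stretch and is no finding about its peaks.

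The copies of this sequence were nearly all local. For 266 WT peaks, or 78.2%, the median copy number was above 1 and the same within the window as in the genome. The corresponding share was 69.2% in the window of chromosome 4 and 42.5% in that of chromosome 10. Of the WT peaks of the cluster, 16 were in single-copy sequence, or 4.71% (2.92 to 7.51), against 28.7% (28.1 to 29.3) of the other WT peaks. The share was 12.1% in the window of chromosome 4 and 26.6% in that of chromosome 10. In the central stretch, however, only 383 of the 8000 tiles were single-copy, and 8 of its 327 WT peaks were, or 2.45% (1.24 to 4.75). The low share of the cluster hence mostly describes the sequence of this stretch and is no finding about its peaks. The authors placed a read that fitted several sites at 1 of them at random, so a peak in duplicated sequence does not show which copy carried the mark.

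Single-copy sequence was looked at apart. The central stretch had 0.0766 Mb in single-copy tiles, and WT peaks overlapped 22 of these 383 tiles, or 5.74%. In the distal stretch, with 0.794 Mb in single-copy tiles, WT peaks overlapped 10 of 3971, or 0.252%. By peaks whose own median was 1 copy, the central stretch held 8 and the distal 7, which is 104 and 8.81 per Mb of single-copy tiles. These values describe few peaks in stretches drawn from the peak positions, a tile called single-copy may hold some repeated 31-mers, and the part of read placement in them was not tested. The highest of the 8 central single-copy peaks, chr13:65747488-65747571, had a pileup of 16 and a fold enrichment of 7.18, and none of the 8 overlapped a KO peak.

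**Figure D2:**
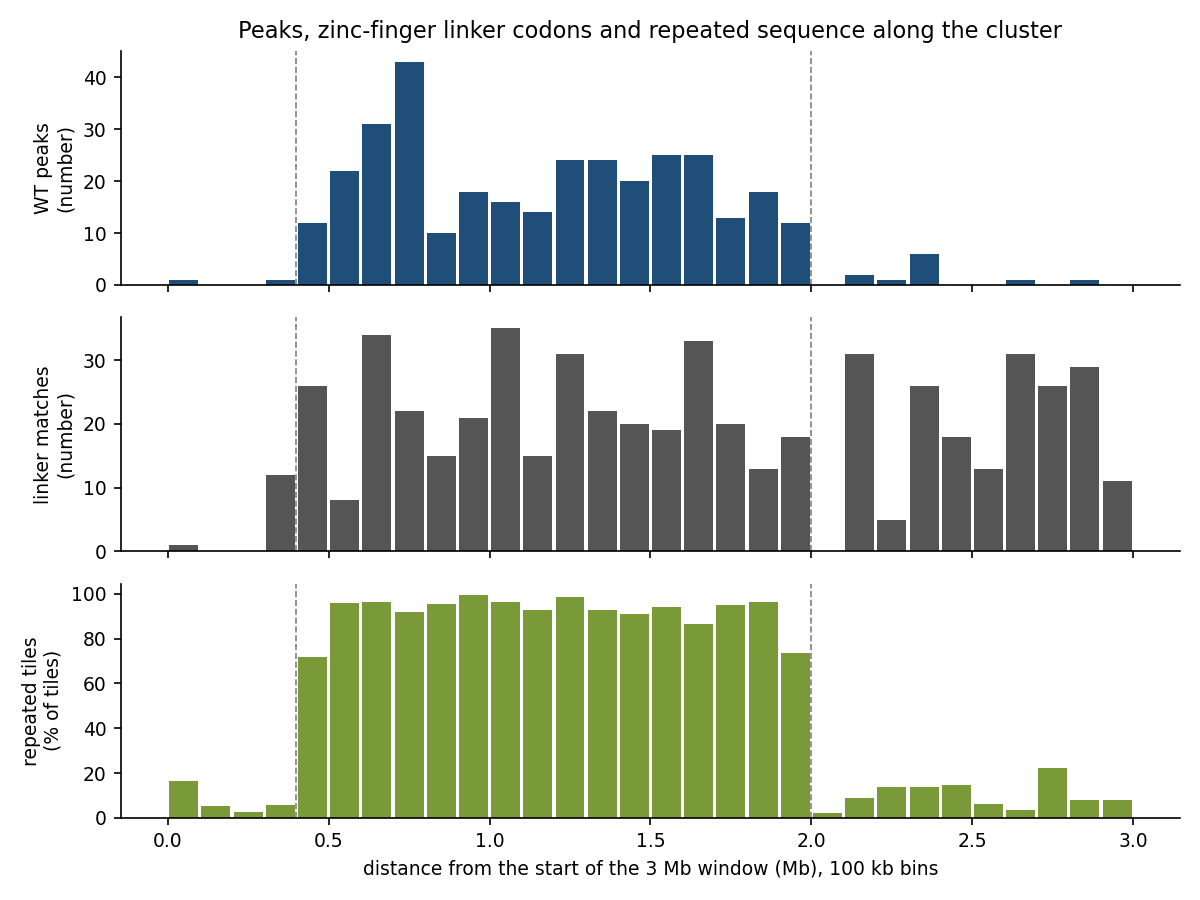
For each 100 kb bin along the window, bars give the number of WT peaks (top), the number of linker matches (middle) and the share of 200 bp tiles whose sequence occurs more than once in the window (bottom); dashed lines mark the central 1.6 Mb. WT peaks and repeated tiles drop together at the right-hand line, while linker matches continue, with 352 in the central 1.6 Mb and 190 in the distal 1.0 Mb.

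Zinc-finger arrays were marked in the central stretch and mostly unmarked in the distal one. The window held 58 arrays, 28 in the central, 28 in the distal and 2 in the centromere-proximal stretch. A WT peak lay within 500 bp of 27 of the 28 central arrays, or 96.4% (82.3 to 99.4), of 6 of the 28 distal arrays, or 21.4% (10.2 to 39.5), and of neither of the 2 others. Over the whole genome, WT peaks lay as near to 43.3% of 661 arrays. In the window of chromosome 4 they lay near 24 of 28 arrays, and in that of chromosome 10 near 23 of 24. Over the whole window of chromosome 13 the share was 33 of 58 arrays, or 56.9% (44.1 to 68.8). Since the stretches were drawn where the peaks lay, the central and distal shares are a description and support no difference between their arrays.

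Central arrays were also longer and mostly outside annotated genes. The median central array had 10.5 linkers and the median distal array 4. All 28 distal arrays overlapped annotated exons, against 8 of the 28 central ones, of which 18 lay outside any gene of GENCODE M1. Among arrays of at least 5 linkers, 22 of 23 were near a WT peak in the central stretch and 3 of 12 in the distal one. Among shorter arrays the numbers were 5 of 5 and 3 of 16. The part of array length in the central and distal shares was not tested. WT peaks covered 46.9% of the 25701 bp of central arrays and 6.51% of the 10662 bp of distal arrays.

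**Figure D3:**
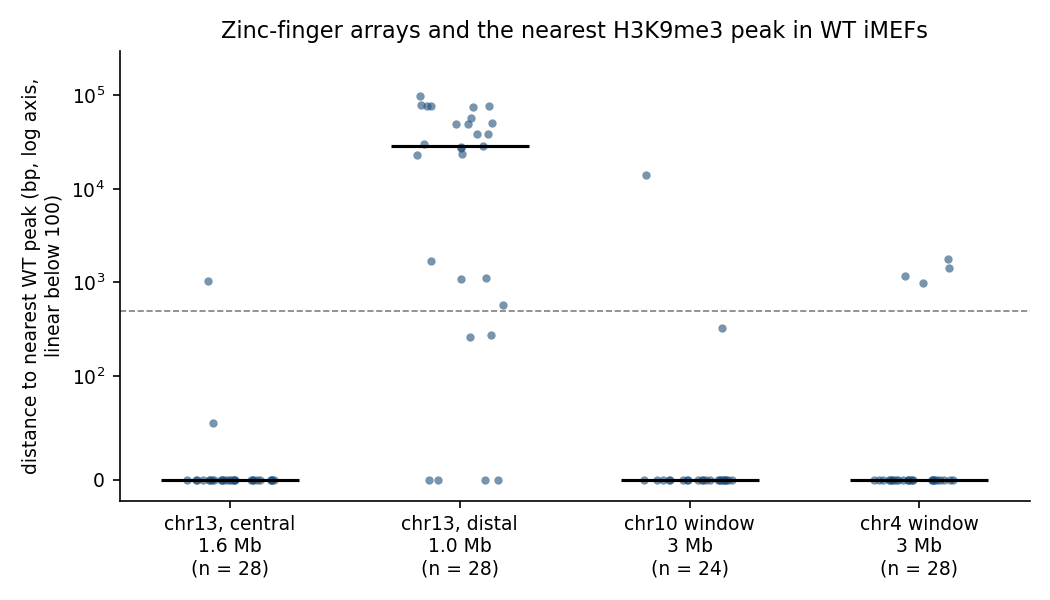
Each point is a zinc-finger array, placed by its distance to the nearest WT peak in bp (log axis, linear below 100; 0 means overlap), with bars at the medians and a dashed line at 500 bp. The medians are 0 in the central 1.6 Mb of the cluster and in the chromosome 4 and 10 windows, and 28700 bp in the distal 1.0 Mb.

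Single arrays show the range within the central stretch. The array of 17 linkers that overlaps Gm16512 (chr13:66222246-66223691) was covered by WT peaks over all of its 1446 bp. The array of 15 linkers at Gm10139 (chr13:65612933-65614292) was covered over 1252 of 1360 bp. The array of 11 linkers in Gm7782 (chr13:65499195-65500221) was covered over 45 of 1027 bp. The central array that lay farthest from a WT peak, that of 13 linkers in 2410141K09Rik (chr13:66532045-66533070), was 1040 bp from the nearest peak, although this gene held 11 WT peaks. Coverage thus ran from none to complete among arrays of similar length.

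Peaks near linkers were the highest. A linker lay within 500 bp of 80 of the 340 WT peaks, or 23.5% (19.3 to 28.3), against 2.00% (1.82 to 2.19) of the other WT peaks. The shares were 7.42% (5.33 to 10.2) in the window of chromosome 4 and 12.6% (8.72 to 17.8) in that of chromosome 10. The window was chosen with its zinc-finger genes known and held 555 of the genome's 5795 linker matches. Its higher share than in the rest of the list hence describes the choice and is no finding. Within the cluster the share was 14.3% at the lowest pileup, 9 fragments (84 peaks), and 19.3% at 10 to 14 fragments (192 peaks). It was 37.2% at 15 to 19 fragments (43 peaks) and 71.4% (50.04 to 86.2) at 20 or more (21 peaks). Peak width moved with it, from a median of 108.5 bp at a pileup of 9 to 385 bp at 20 or more, and its part in the result was not tested. A linker inside the peak itself was found for 56 WT peaks, whose median fold enrichment was 5.74, against 4.75 for the 260 peaks with no linker within 500 bp.

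**Figure D4:**
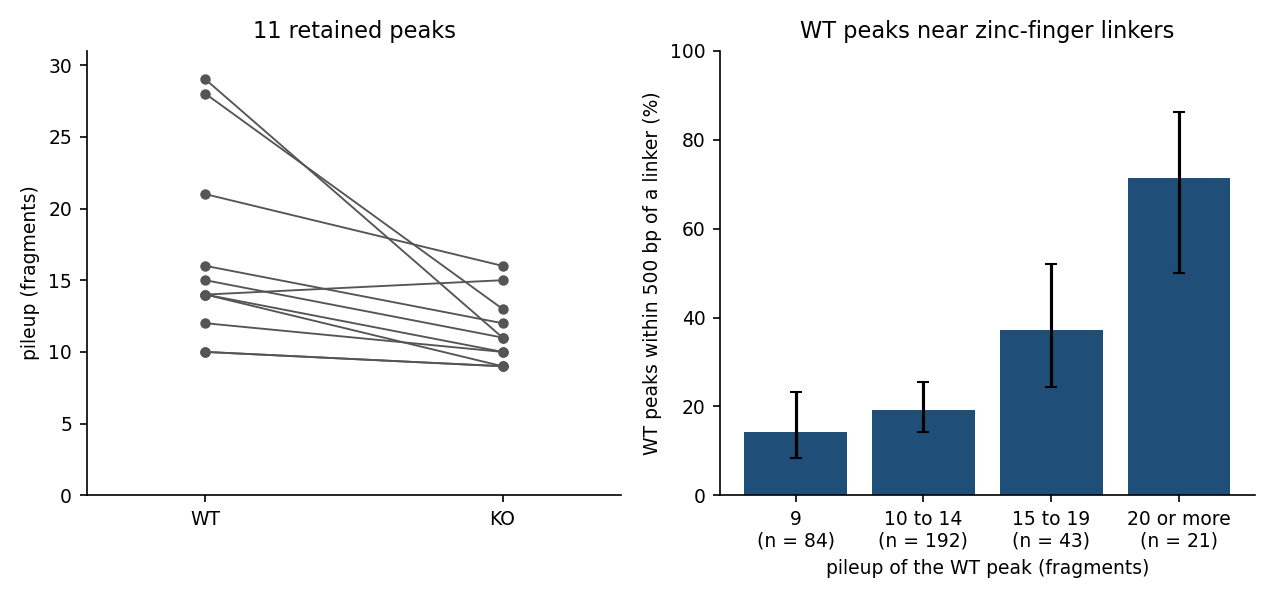
The left panel joins the pileup of each of the 11 retained WT peaks (fragments) to the highest pileup of the KO peaks it overlaps, and 10 of the 11 lines fall. The right panel gives, by WT pileup, the share of cluster peaks within 500 bp of a linker (bars, with 95% Wilson intervals), which is 14.3% at a pileup of 9 and 71.4% at 20 or more.

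Many of the peaks were copies of each other. Peaks were joined into a family when they shared at least 50% of the 31-mers of the shorter peak. Of the 340 WT peaks, 173 had at least 1 such partner and 167 had none. The largest family held 62 peaks, of which 42 had a linker inside and 4 were retained. Its median pileup was 14 fragments and its median copy number 10.5. The next families held 10, 7, 6 and 5 peaks, and 3 of these 4 had no linker inside or within 500 bp. Among all 31-mers, that found in most WT peaks was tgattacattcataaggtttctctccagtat (chr13:65439246-65439276, plus strand). It was found in 35 WT peaks and at 187 places in the window, 186 of which overlapped a linker match, 90 a WT peak and 5 a KO peak.

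The peaks fell on some of the annotated genes and not on others. The window overlapped 75 genes of GENCODE M1, and 19 of them held a WT peak of the cluster, or 25.3% (16.9 to 36.2), against 6.54% of all 37310 annotated genes. Among the 26 entries named Zfp or Rsl, only Zfp640, Zfp712, Zfp458 and Zfp457 held WT peaks, 7 in all, and none held a KO peak. This is 15.4% of the entries (6.15 to 33.5), an interval that holds the 20.8% of the 379 Zfp genes of the genome. By peaks, 2.06% (1.00 to 4.19) of the WT peaks of the cluster lay in Zfp genes, against 1.06% of the whole WT list. The other 22 entries held none, among them Zfp369, both entries of Zfp708 and of Zfp738, Zfp759, Zfp455, Zfp595, Zfp953, Zfp456, Zfp429, Zfp459, Zfp874a, Zfp874b, Zfp58, Zfp87, Zfp748, Zfp493, Zfp273, and Rsl1, a KRAB zinc-finger repressor of male-specific liver genes. The distal stretch held 24 of the 26 entries.

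The genes that give the cluster its name were thus unevenly marked. Zfp369 (chr13:65380122-65405529), with 3 exonic linkers, held no peak, and its array was 12135 bp from the nearest WT peak. Zfp640 (chr13:66771705-66774266), with 5 exonic linkers, overlapped 2 WT peaks, both touching exons, over 565 bp. The first, chr13:66771088-66771954, had a pileup of 14 and 7 linkers inside. It lay partly beyond the annotated gene, so not all of these linkers are exonic. The second, chr13:66772111-66772426, had a pileup of 18 and a fold enrichment of 8.80. Both were absent from the KO list. The 4 Vmn2r-ps entries, Vmn2r-ps100, Vmn2r-ps104, Vmn2r-ps105 and Vmn2r-ps106, lay in the central stretch and held no peak in either list, although GENCODE M1 lists them as protein-coding.

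In the distal stretch, peaks in zinc-finger genes lay on exons and were close to the calling limit. Zfp712 held chr13:67141474-67141579, with 2 linkers inside, and Zfp458 held chr13:67358393-67358725, with 3 linkers inside, and chr13:67356458-67356527. Zfp457 held chr13:67394389-67394560 and chr13:67394816-67394927, and AA987161, with 13 exonic linkers, held chr13:67692523-67692899, with 3 linkers inside. All 6 of these peaks were on exons and in single-copy sequence and had a pileup of 9, the lowest in the list. The other 5 distal peaks had pileups of 10 to 12, and 3 of them lay in sequence of over 1000 copies. The mark was hence detectable at some distal genes only at the lowest pileup called, and an unmarked neighbour such as Zfp748, with 11 exonic linkers, is not shown to lack it.

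The genes with the highest counts of WT peaks had no zinc-finger name. These counts are not scaled by gene length, and Gm7822, 2410141K09Rik and Gm7782 are far longer than Zfp640. Of the 26 Zfp and Rsl entries, 24 lay in the distal stretch, where peaks were few. The counts hence do not compare how densely genes were marked. The lincRNA Gm7822 (chr13:65881841-65968241, plus strand) held 13 WT peaks. These covered 968 of the 1446 bp of an array of 17 linkers that lies within the gene but on the minus strand. The protein-coding gene 2410141K09Rik (chr13:66519050-66542067), with 3 exonic linkers, held 11 WT peaks, all in introns, and 1 KO peak on an exon. The lincRNA Gm7782 (chr13:65480701-65553664) held 8 WT peaks and 2 KO peaks, none of which overlapped each other. Gm17514 and Gm16986, both lincRNAs, held 3 WT peaks each, and Gm10323, with 5 exonic linkers, held 2. Gm10139, Gm17353, Gm10324 and Gm16512 held 1 each, and that of Gm10139 was the only WT peak in a gene of the window that overlapped a KO peak.

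Most of the cluster's peaks lay between genes. Of the 340 WT peaks, 16 touched an exon, 40 lay in introns and 284, or 83.5%, lay outside annotated genes. Gene bodies held 16.5% (12.9 to 20.8) of the WT peaks, against 24.2% (23.6 to 24.7) of the other WT peaks, 76.4% (72.2 to 80.1) in the window of chromosome 4 and 13.5% (9.53 to 18.9) in that of chromosome 10. Promoters, from 2 kb upstream to 0.5 kb downstream of a transcript start, held 27 WT peaks, or 7.94% (5.51 to 11.3), against 3.79% (3.55 to 4.05) of the other WT peaks. The promoter share was 14.4% (11.4 to 17.9) in the window of chromosome 4 and 7.73% (4.81 to 12.2) in that of chromosome 10. The 27 promoter peaks of the cluster belonged to the promoters of 13 genes, with 4 each at Gm10139 and Gm10772 and 2 at Zfp640, the only Zfp or Rsl gene among them. The short entries Gm10139, Gm10772, Gm17353, Gm17404 and Gm17449 lie wholly inside zinc-finger arrays, so their promoters as defined here take in array sequence. The part of array peaks in the promoter share was not tested. Since 18 of the 28 central arrays lay outside annotated genes, these shares depend on how completely GENCODE M1 lists the genes of this stretch.

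The WT peaks were otherwise like those of the rest of the list, with somewhat higher signal. Their median width was 164 bp, against 134 bp in the rest of the WT list. The median pileup was 11 fragments against 10, the median fold enrichment over local background 4.98 against 4.63, and the median background 1.31 fragments against 1.21. Pileup ran from 9 to 29, and 84 of the 340 peaks, or 24.7%, were at the lowest value, against 43.4% in the rest of the list. The peaks formed runs: 142 of the 339 gaps between neighbours were at most 1 kb, and 20 runs held at least 4 peaks. The longest run, chr13:66218576-66225696, held 10 WT peaks over 7120 bp with 18 linkers and no KO peak.

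The 3 widest WT peaks and the 3 of highest pileup held linkers, while the next by pileup, chr13:65752415-65752615 at 25 fragments, held none. The widest, chr13:66222204-66224175, was 1971 bp wide, held 18 linkers and had a pileup of 24. The next, chr13:65438432-65440084, was 1652 bp wide with 10 linkers and a pileup of 22, and it was followed by the highest-scoring peak, 1478 bp wide with 9 linkers and a pileup of 29. A pileup of 28 was reached by chr13:66894210-66895648, with 2 linkers, and by chr13:66328245-66328915 at Gm10772, with 8 linkers. The latter had the highest local background of the cluster, 7.23 fragments, and so a fold enrichment of only 3.52.

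In the KO list the cluster held scattered low peaks. The KO list held 10.9 peaks per 100 WT peaks in the window (7.76 to 15.3), against 16.3 (15.7 to 16.8) over the whole lists, 25.6 (20.9 to 31.5) in the window of chromosome 4, 5.31 (2.92 to 9.66) in that of chromosome 10 and 4.92 (3.55 to 6.80) on the rest of chromosome 13. Since the window was chosen partly by the difference between the lists, this ratio describes the choice and is no finding. It also depended on the setting, with 17.2 when peaks within 1 kb were merged and 3.13 at pileups of at least 15. KO peaks covered 3.88 kb and WT peaks 79.4 kb. The median KO peak was 79 bp wide with a pileup of 10, and the highest pileup was 16. The lists carry no read totals, but the study's methods give a narrow range of read numbers for the iMEF libraries. With 1 library, lower enrichment of the KO immunoprecipitation and loss of the mark cannot be told apart.

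A base in common with a KO peak was found for 11 of the 340 WT peaks, or 3.24% (1.82 to 5.70), against 2.42% of the whole WT list, and these are called retained. The interval holds the share of the whole list. In the window of chromosome 4, 39 of 445 were retained, or 8.76% (6.48 to 11.8), and in that of chromosome 10, 1 of 207. Among the KO peaks, 13 of 37 touched a WT peak, or 35.1% (21.8 to 51.2), against 16.1% of the whole KO list, with 33.3% (25.3 to 42.4) in the window of chromosome 4. All 11 retained peaks and their 13 KO partners lay in the central stretch, where WT peaks were densest, and the part of that density in the overlap was not tested.

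The retained peaks were few loci with neighbours. In the first, chr13:65613455-65614933 had a pileup of 29 and a fold enrichment of 12.1 in WT, and its 2 KO peaks reached 11 and 5.28. Its neighbour, chr13:65615193-65615370, had a pileup of 21 in WT and 16 in KO, the highest KO value of the window. Both lie at the array shown above, within 2 kb of each other.
At the second locus, chr13:66894210-66895648 went from a pileup of 28 in WT to at most 13 in its 2 KO peaks. Its neighbour chr13:66895820-66896161 went from 12 to 10. The highest-scoring lost peak, chr13:66893846-66894131, with a pileup of 23 and 4 linkers inside, lay on the same array, so retained and lost peaks adjoined here.
The third locus held 4 retained peaks close together. At chr13:65732191-65732630 the pileup was 14 in WT and 15 in KO, the only retained peak with a higher KO value. At chr13:65734136-65734317 it was 10 and 9, at chr13:65749143-65749512 it was 15 and 11, and at chr13:65753675-65754330 it was 16 and 12.
The remaining 3 stood apart from these loci. At chr13:66095074-66095300 the pileup was 14 in WT and 10 in KO, at chr13:66104167-66104243 it was 10 and 9, and at chr13:66410657-66410926 it was 14 and 9. Over all 11, the KO pileup was lower in 10, the KO width was smaller in 11, and the KO fold enrichment was lower in 5.

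Most of the strongest WT peaks were lost, as were most WT peaks of the cluster. The retained chr13:65613455-65614933 and chr13:66894210-66895648 scored higher than any lost peak. After chr13:66893846-66894131 (pileup 23, fold enrichment 9.71), the highest scores among lost peaks were at chr13:65438432-65440084 (pileup 22, fold enrichment 9.94), chr13:65752415-65752615 (25 and 8.75), chr13:65612043-65612283 (23 and 9.19) and chr13:66441707-66441853 (20 and 9.72). All 5 lay in sequence of at least 6 copies, and 3 of the 5 had a linker inside. Of the 21 WT peaks with a pileup of at least 20, 3 were retained, and of the 84 at a pileup of 9, none was. Between these, 2 of 43 were retained at 15 to 19 fragments and 6 of 192 at 10 to 14. The median pileup was 14 in retained and 11 in lost peaks, and the median local background was 2.02 and 1.31 fragments.

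The 24 KO peaks with no WT overlap were low, and they lay 137 to 53983 bp from the nearest WT peak. Among the 37 KO peaks of the window, the highest scores after chr13:65615201-65615285 (pileup 16, −log10 q 5.93) were those of chr13:65722128-65722277 and chr13:66550728-66550824. Both had a pileup of 11 and a −log10 q of 4.86, and neither overlapped a WT peak. They were followed by chr13:66894274-66894524 (pileup 13) and chr13:65613695-65613759 (pileup 11), which did. The median pileup was 10 in the 24 peaks and 11 in the 13 that overlapped. Of the 24, 8 shared at least 1 31-mer with WT peaks of the window, and 3 had at least 50% of their 31-mers there. A linker lay within 500 bp of 8 of the 37 KO peaks, or 21.6% (11.4 to 37.2), against 0.508% of the other KO peaks. As for WT, this contrast describes the choice of a window rich in linkers. Within 500 bp of a KO peak lay 3 of the 58 arrays, all central, or 5.17% (1.77 to 14.1), an interval that holds the genome's 17 of 661, or 2.57%. In the window of chromosome 4 it was 13 of 28.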

How the data were processed

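Native chromatin of Setdb1 cKO iMEFs was digested with micrococcal nuclease, and its single-end reads were aligned by the authors (Bowtie2 2.2.3, mm9), who placed reads with several fits at 1 of them at random and removed duplicates with Picard. Peaks were called with MACS2 2.1.0.20140616 (options not given in the sources used here), 1 list per library. The deposited pileup is a coverage signal in fragments. The fold enrichment, as deposited, is a ratio of pileup over local background, with 1 added to both, from which the background was recovered. The deposited −log10 p-value and −log10 q-value belong to each peak, and score means the −log10 q below. Whether starts count from 0 or 1 is not stated, so each carries 1 bp of uncertainty; sequences were read as from 0. Read totals are not part of the lists.

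Genes and promoters came from GENCODE M1 on NCBIM37 (mm9), and linkers, arrays and 31-mer copies from the same genome. Overlap meant at least 1 bp. Shares carry 95% Wilson intervals, and those of peak ratios were derived from the share of KO peaks among all peaks. No test was run, since each group had 1 library. The members, gene and peak lists were chosen with earlier results of these data known. Named were all Zfp and Rsl genes (2 are not reported here), the 10 other genes with most WT peaks, retained peaks (all, if at most 12), the 5 highest-scoring KO and lost WT peaks, and the 3 widest and highest WT peaks. Interval code was tested on 5000 simulated peaks and found 200 of 200 planted overlaps. Python 3.11.15, numpy 2.4.6, pandas 2.3.3, numba 0.67.0 and matplotlib 3.10.9 were used.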

Additional observations from a re-analysis of the deposited data

How the results depend on the processing

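With 1 library per group, peaks near the lowest pileup carry the largest counting error, no spread between replicates was available, and positions in duplicated sequence are uncertain by the number of copies. No paired analysis was possible because there was only 1 library in each group and no result came from a test. Of 49 alternatives, 25 stayed within 1.5 times the count or within the interval of the share, and 24 did not. With pileups of 15 or more, 64 WT and 2 KO peaks were left, with 3.13 KO per 100 WT peaks, 28.9 kb and 1.56% retained, with 48.4% near a linker and 1.56% in single-copy sequence. This limit applied to both lists, so few KO peaks were left to overlap. Against all KO peaks, 2 of the 43 WT peaks at 15 to 19 fragments and 3 of the 21 at 20 or more were retained. A score at or above the WT median of 3.04 left 18 KO peaks. Merging peaks within 1 kb gave 198 WT peaks, 17.2 KO per 100 WT peaks and 129 kb. Retained WT peaks fell to 0.588% when 50% of the peak, alone or of both peaks, had to overlap and to 1.76% by shared 31-mers, an alternative chosen after seeing the data, and were 10.6% within 1 kb. The overlapping KO share was 5.41% when 50% of both peaks had to overlap and 59.5% within 1 kb. With protein-coding genes alone, 8.24% of WT peaks lay in genes. Promoters reaching 5 kb upstream held 13.2%. Linkers lay inside 16.5% of WT peaks and within 2 kb of 40.3%. Arrays of at least 2 linkers were near a WT peak in 42.5%. By 50-mers 13.2%, and by at most 2 copies 10.9%, of WT peaks were in single-copy sequence. The central stretch held 64 of 64 WT peaks at a pileup of at least 15. Peak summits were not part of the lists, so that alternative was not run and the centre of the peak, chosen after seeing the data, was used in its place.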
